A study of Mus musculus with 7 samples.

Results

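Neuromesodermal progenitors are cells of the caudal epiblast and tailbud that can give rise to both the spinal cord and the paraxial mesoderm. They are known for holding T, a T-box factor that drives mesoderm formation, together with Sox2, an SRY-box factor that keeps neural progenitors. The balance between these factors is known to accompany the choice of a cell between mesoderm and neural tissue. T is also a gene of the notochord, and Sox2 a gene of the whole neural tube, so in dissected tissue neither one marks the progenitors alone.

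The 5 genes described here are T, Sox2, Nkx1-2, Evx1 and Hes3, chosen by name among the 25965 rows of the deposited table. Each had 1 row, and all 5 were among the 13997 genes tested, with values above the filter in all 7 libraries. RNA-seq was done on the caudal end of female mouse embryos of the FVB/N strain at E9.5, cut behind the last somite seen. The labels call the piece postsomitic mesoderm, and the title of the series presomitic mesoderm. The tested group was 4 libraries from Smchd1 MommeD1/MommeD1 embryos, homozygous for an allele described as null, and the control was 3 libraries from Smchd1 +/+ embryos. Smchd1 is a noncanonical SMC protein of chromatin, best known for its role on the inactive X chromosome. No source used here says whether a library is 1 embryo or a pool, so p-values cover only the variation from library to library, which may be technical. The column names give a genotype but no sample number, and libraries are lettered in file order within each group.

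Reads in listed genes numbered 22137823 to 23847381 in null and 19622596 to 23548995 in wild-type libraries. Wild-type libraries B and C, at 20394567 and 19622596, lay below every null library. Listed genes held 31.2% and 28.8% of the library denominator in these, 37.9% in wild-type library A and 34.3% to 37.4% in null libraries. Smchd1 had 1922 to 2372 reads in null and 5572 to 6552 in wild-type libraries. Its log2 change was -1.67 (SE 0.07, limma adjusted p = 9.54e-05). The paraxial mesoderm gene Tbx6 had 2303 to 3199 reads in null and 2211 to 2671 in wild-type libraries, so the labelled tissue was present in each. Genes of neural tube, notochord, hindgut, surface ectoderm, vessels and blood were also read in every library, so each piece held several tissues. On the deposited scale the median change of all tested genes was 0.16 on the log2 scale. Each library was therefore centred on the median of its autosomal genes, after which that median was -0.03. Levels are given as centred RPM, reads per 1000000 of the library denominator after that centring, with changes as log2 null minus wild-type. On this scale 7 genes rose and 1, Smchd1, fell among the 13997, which is 0.05% called higher, 0.00714% called lower and 0.0572% in either direction. The deposited scale called 0.0429%.

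A pair of libraries stood apart, wild-type library B at tailbud and neural genes and null library C at neural genes. Wild-type library B had 118 reads of Wnt3a, a ligand of the tailbud, against 1102 and 1243 in the other wild-type libraries. It had 200 reads of Cyp26a1, an enzyme that clears retinoic acid, against 2033 and 2391. Of the 25 tailbud and caudal epiblast genes on the list used here, 14 were lowest in wild-type library B, or 56.0%, against 22.7% of all genes tested. Of the 12 neural genes tested, 10 were highest there, or 83.3%, against 35.0% of all genes. Null library C lay at the other end, with 9 of the same 12 neural genes lowest, or 75.0%, against 13.2% of all genes. The changes of the 5 genes are therefore also given without the library or libraries that bear on them, a choice made after their values were seen.

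The promoters of T and Evx1 are shown because this pair had the smallest mean difference of profile among the 5 (0.107 on the log2 scale). They run from 250 bases before to 50 after the RefSeq start, build GRCm38.p6. The T window is chr17:8434173-8434472 on the plus strand, and the Evx1 window is chr6:52313248-52313547 on the plus strand. Capitals mark matches, on either strand, to CTTTGA (TCF/LEF), GGTGTGA (T-box), CATTGT (SOX) or TTTATG (CDX).
T: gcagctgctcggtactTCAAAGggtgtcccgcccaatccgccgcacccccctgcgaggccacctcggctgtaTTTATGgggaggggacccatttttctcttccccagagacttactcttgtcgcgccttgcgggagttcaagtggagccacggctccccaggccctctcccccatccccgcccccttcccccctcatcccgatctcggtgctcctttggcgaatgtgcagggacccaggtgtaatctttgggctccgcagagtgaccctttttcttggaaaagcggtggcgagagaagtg
Evx1: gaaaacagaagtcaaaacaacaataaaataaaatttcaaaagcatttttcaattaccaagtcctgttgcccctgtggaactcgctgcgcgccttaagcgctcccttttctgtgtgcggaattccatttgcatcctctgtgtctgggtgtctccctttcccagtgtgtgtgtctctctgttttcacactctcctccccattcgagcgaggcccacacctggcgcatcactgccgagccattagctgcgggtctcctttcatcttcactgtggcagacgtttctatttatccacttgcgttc
The T window held the TCF/LEF letters on the minus strand from position -234 and the CDX letters on the plus strand from position -178. Those letters occurred in 16.0% and 11.9% of the 32851 promoter windows of 300 bases. The T-box letters occurred in 3.98% and the SOX letters in 12.6%. None of the 4 motifs matched in the windows of Evx1, Sox2 or Nkx1-2, which says only that these exact letters are not there. The motifs do not overlap each other in T, and the matches are a description.

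None of the 5 genes passed the test over all genes, on the centred or on the deposited scale. T and Evx1 had higher means in null libraries, and Sox2, Nkx1-2 and Hes3 had lower means. T had the smallest unadjusted p of the 5, and Nkx1-2 was the only one of the 5 whose groups did not overlap on the centred scale. On the centred scale T was the 1 gene of the 5 with an unadjusted limma p under 0.05 (0.0349), as were 7.29% of all genes tested in the higher and 6.71% in the lower direction. On the deposited scale both T and Evx1 had an unadjusted limma p under 0.05.

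T, the brachyury gene on chromosome 17 from 8434423 to 8442496 (mm10), was the most abundant of the 5. It had 70.9, 96.0, 83.5 and 81.7 centred RPM in null libraries A to D, from 4765 to 6692 reads. It had 62.8, 36.0 and 75.9 centred RPM in wild-type libraries A to C, from 2059 to 4302 reads. The groups overlapped only in that null library A lay below wild-type library C, and wild-type library B was by far the lowest. The mean log2 level was 6.37 ± 0.18 in null (SD, n = 4) and 5.80 ± 0.56 in wild-type libraries (SD, n = 3). The change was 0.57 (SE 0.23, 95% interval 0.05 to 1.09), or 1.49-fold, with a limma adjusted p = 0.352. The deposited scale gave 0.76 (limma adjusted p = 0.198). Without wild-type library B the change was 0.26 (limma adjusted p = 0.710). In bulk tissue, fewer cells of a type and less RNA per cell cannot be told apart.

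Evx1, a homeobox gene of the primitive streak and tailbud and later of spinal interneurons, lies on chromosome 6 from 52313498 to 52318378. It had 28.8, 35.7, 32.7 and 24.6 centred RPM in null libraries A to D. It had 26.0, 13.2 and 29.6 centred RPM in wild-type libraries A to C. The groups overlapped, with null library D below 2 of the wild-type libraries, and wild-type library B was again the lowest. The change was 0.48 (SE 0.26, 95% interval -0.12 to 1.08, limma adjusted p = 0.385), and 0.12 without wild-type library B (adjusted p = 0.807). The deposited scale gave 0.67 (limma adjusted p = 0.278). The antisense gene 5730457N03Rik overlaps the start of Evx1, with 73 shared exonic bases in GENCODE M21 (Evx1os there). It had 2134 to 2996 reads in null and 679 to 2050 in wild-type libraries, also lowest in wild-type library B. The strand setting of the counting is not given in the sources used here, so part of the reads of each could belong to the other.

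Sox2 on chromosome 3, from 34650005 to 34652461, had its extremes in both libraries that stood apart. It had 17.8, 17.5, 8.22 and 18.4 centred RPM in null libraries A to D, from 535 to 1302 reads. It had 15.6, 28.9 and 15.1 centred RPM in wild-type libraries A to C, from 853 to 1653 reads. Null library C was the lowest and wild-type library B the highest of all 7, while the remaining null libraries lay above the remaining wild-type libraries. The mean log2 level was 3.88 ± 0.56 in null (SD, n = 4) and 4.25 ± 0.53 in wild-type libraries (SD, n = 3). The change was -0.37 (SE 0.33, 95% interval -1.12 to 0.39, limma adjusted p = 0.556), and -0.17 on the deposited scale (adjusted p = 0.715). Without both extreme libraries it was 0.22 (SE 0.08, limma adjusted p = 0.534), with the opposite sign. The noncoding gene Sox2ot contains Sox2 on the same strand, and its row had 35 to 195 more reads than the Sox2 row in each library. Sox2ot and Sox2 share 0 exonic bases in GENCODE M21, yet the 2 rows cannot be told apart in this table.

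Nkx1-2, a homeobox gene known as a marker of the caudal lateral epiblast and the preneural tube, lies on chromosome 7 from 132594877 to 132599637. It had 29.8, 27.5, 12.6 and 26.0 centred RPM in null libraries A to D. It had 30.5, 40.1 and 33.9 centred RPM in wild-type libraries A to C. Every null library lay below every wild-type library, by a gap of 0.03 on the log2 scale, which was also the case for 6.24% of all genes tested. The mean log2 level was 4.51 ± 0.58 in null (SD, n = 4) and 5.11 ± 0.20 in wild-type libraries (SD, n = 3). The change was -0.60 (SE 0.28, 95% interval -1.24 to 0.03), or 0.658-fold, with a limma adjusted p = 0.355. The deposited scale gave -0.41 (limma adjusted p = 0.424), and there the groups overlapped. It was -0.32 without null library C (limma adjusted p = 0.464) and -0.21 without both extreme libraries (adjusted p = 0.589), with the same sign and a smaller size. The antisense gene Gm16764 shares 541 of its 601 exonic bases with Nkx1-2. It had 183 to 482 reads in null and 471 to 595 in wild-type libraries. As the strand setting of the counting is not given, part of the reads of each could belong to the other. In GENCODE M21 the span of Fgfr2 also covers Nkx1-2 on the same strand, with 0 exonic bases shared.

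Hes3, a basic helix-loop-helix transcriptional repressor found in neural progenitors, lies on chromosome 4 from 152285972 to 152291662 and varied most among the 5. It had 14.1, 12.1, 3.12 and 15.9 centred RPM in null libraries A to D, from 203 to 1122 reads. It had 12.9, 26.0 and 14.0 centred RPM in wild-type libraries A to C, from 787 to 1484 reads. Null library C and wild-type library B were again the lowest and the highest, and the other 5 libraries of both groups lay between 12.1 and 15.9 centred RPM. The change was -0.80 (SE 0.54, 95% interval -2.05 to 0.45, limma adjusted p = 0.455), and -0.61 on the deposited scale (adjusted p = 0.510). It was -0.26 without null library C (adjusted p = 0.636), -0.48 without wild-type library B (adjusted p = 0.819) and 0.06 without both (adjusted p = 0.896).

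**Figure D1:**
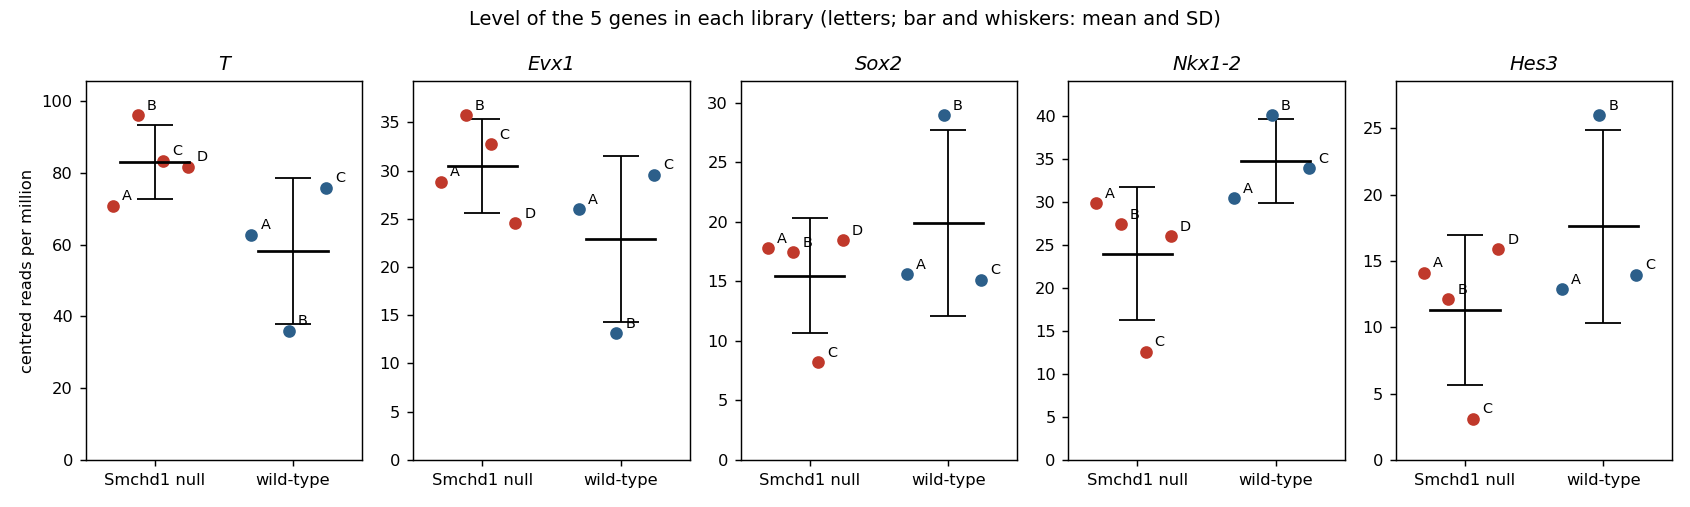
Centred RPM of each gene (vertical axes, starting at 0) in the null and wild-type libraries, with each point lettered by library and the mean and SD of the group as bar and whiskers. Wild-type library B is lowest for T (36.0) and Evx1 (13.2), and null library C is lowest for Sox2 (8.22), Nkx1-2 (12.6) and Hes3 (3.12).

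**Figure D2:**
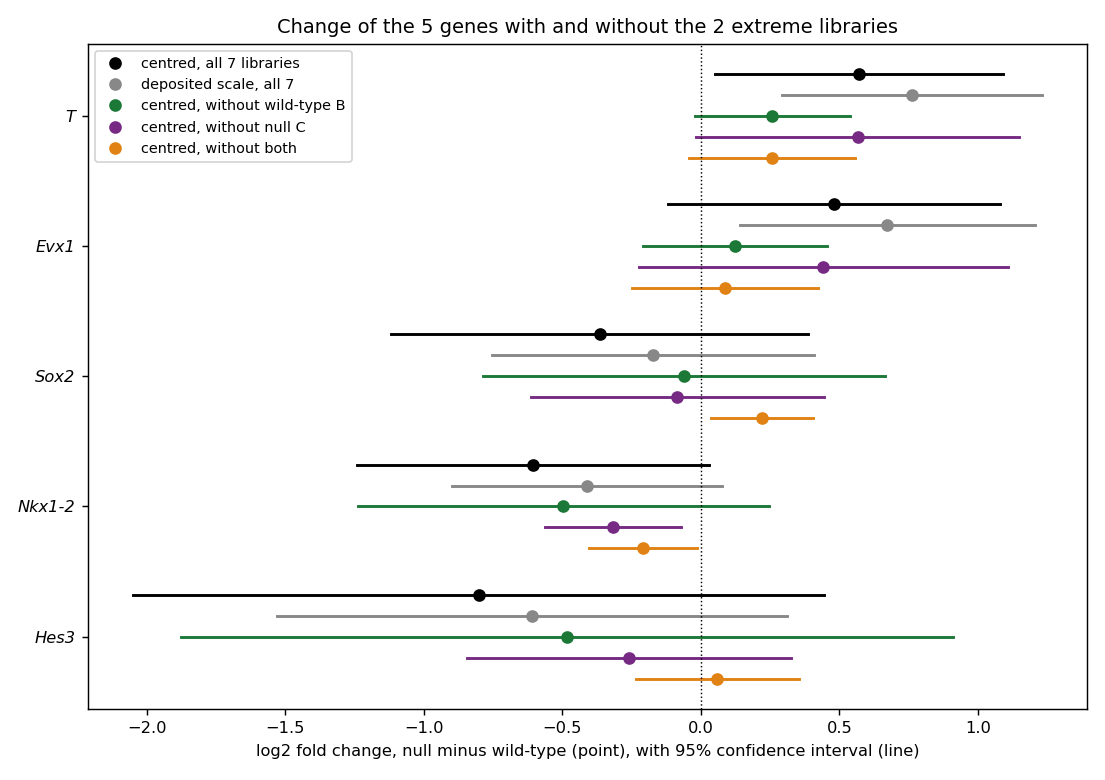
Log2 change of each gene, null minus wild-type, as a point with its 95% confidence interval, on the centred scale, on the deposited scale, and on the centred scale leaving out wild-type library B, null library C or both. Sox2 lies at -0.37 with all libraries and at 0.22 without both, and Hes3 at -0.80 and 0.06, while Nkx1-2 stays below 0 and T and Evx1 stay above 0 in the settings drawn.

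The end of each column name holds a number, 18, 21 or 22, that both groups share and that no source used here explains. Within these numbers, Nkx1-2 was the only gene of the 5 with lower null values under each, by differences of -0.43, -0.38 and -0.71 on the log2 scale. T was higher in null libraries under each number, by 0.98, 0.11 and 0.51. Evx1 gave 1.13, -0.27 and 0.40, Sox2 -0.70, 0.28 and -0.38, and Hes3 -0.88, 0.18 and -1.07. Sox2, Evx1 and Hes3 thus changed direction with the number. The value for 18 is null library A minus wild-type library B, and the value for 21 is null library D minus wild-type library C. The value for 22 is the mean of null libraries B and C minus wild-type library A. A further number, 4180, is shared by null library D and wild-type libraries B and C. There the null minus wild-type differences were 0.64 for T, 0.32 for Evx1, -0.18 for Sox2, -0.50 for Nkx1-2 and -0.26 for Hes3.

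Per kilobase of exon, T was the most abundant of the 5 in each of the 7 libraries. It averaged 35.9 ± 4.44 centred RPM per kilobase in null (SD, n = 4) and 25.2 ± 8.78 in wild-type libraries (SD, n = 3), over 2315 exonic bases in GENCODE M21. Evx1 followed in null libraries at 10.6 ± 1.68, with Sox2 at 7.52 ± 2.36, Nkx1-2 at 7.35 ± 2.38 and Hes3 at 5.77 ± 2.89. In wild-type libraries Nkx1-2 came next at 10.7 ± 1.49, with Sox2 at 9.66 ± 3.81, Hes3 at 8.98 ± 3.71 and Evx1 at 7.96 ± 3.00. In wild-type libraries the ranges of these 4 genes overlapped. In null libraries Evx1, at 8.53 to 12.4, lay above Hes3, at 1.59 to 8.10, and the other pairs overlapped. Wild-type library B was the library in which T, at 15.6 centred RPM per kilobase, came closest to Sox2, at 14.1.

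Over all 7 libraries the genes varied in 2 sets, T with Evx1, and Sox2 with Nkx1-2 and Hes3. The second set rested on null library C and wild-type library B, as the correlations given below show. The relation of T and Evx1 was also weaker without null library B and wild-type library B. The log2 ratio of Evx1 to T varied little, at -1.45 ± 0.20 in null (SD, n = 4) and -1.36 ± 0.09 in wild-type libraries (SD, n = 3). In null libraries the SD was 0.18 for T alone and 0.24 for Evx1 alone, so the ratio was no steadier than T there. The ratio of T to Sox2 varied more. It was 3.99, 5.50, 10.2 and 4.44 in null libraries A to D, and 4.03, 1.25 and 5.01 in wild-type libraries A to C. The high ratio in null library C came with low Sox2, and the low ratio in wild-type library B came with low T and high Sox2. The log2 ratio of T to Sox2 averaged 2.49 ± 0.60 in null (SD, n = 4) and 1.55 ± 1.08 in wild-type libraries (SD, n = 3), with overlap between the groups. Their difference was 0.94, and 0.32 without wild-type library B. Nkx1-2 over T, in log2, averaged -1.86 ± 0.63 in null and -0.68 ± 0.73 in wild-type libraries, and every null library lay below every wild-type library. The difference was -1.17, and -0.76 without wild-type library B. Null library A had the highest null value, at -1.25, and wild-type library C the lowest wild-type value, at -1.16. These ratios combine genes chosen with earlier results known, and no test was run on them.

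Correlations over the 7 libraries were computed for all 10 pairs of the 5 genes, with two-sided exact permutation tests. T and Evx1 had r = 0.95 (exact permutation p = 0.00992, adjusted over 10 pairs 0.0483) and rho = 0.79 (p = 0.048, adjusted 0.12). Without null library B and wild-type library B, the libraries farthest from the median of T, r was 0.345. Sox2 and Hes3 had r = 0.96 (exact permutation p = 0.00615, adjusted 0.0483) and rho = 0.86 (p = 0.0238, adjusted 0.119). Without null library C and wild-type library B, r was 0.38. Nkx1-2 and Hes3 had r = 0.96 (exact permutation p = 0.0145, adjusted 0.0483) but rho = 0.54 (p = 0.236, adjusted 0.337), and r was -0.21 without the same libraries. Sox2 and Nkx1-2 had r = 0.89 (exact permutation p = 0.0236, adjusted 0.059) and rho = 0.32 (p = 0.498, adjusted 0.498), and r was -0.87 without the same libraries. T and Sox2 had r = -0.64 (exact permutation p = 0.173, adjusted 0.183) and rho = -0.43 (p = 0.354, adjusted 0.393), with r = -0.42 without null library B and wild-type library B. Evx1 and Hes3 had r = -0.63 (exact permutation p = 0.169, adjusted 0.183) and rho = -0.86 (p = 0.0238, adjusted 0.119). Their r was -0.76 without the same libraries. T and Nkx1-2 had r = -0.55 (exact permutation p = 0.178, adjusted 0.183) and rho = -0.79 (p = 0.048, adjusted 0.12). Their r was -0.60 without the same libraries. T with Hes3, Sox2 with Evx1 and Nkx1-2 with Evx1 had r of -0.56, -0.73 and -0.55 (exact permutation, each adjusted 0.183). The relation of T and Evx1 was thus much weaker without the libraries left out for it, and those among Sox2, Nkx1-2 and Hes3 did not hold without null library C and wild-type library B. The genotypes were pooled, since 4 and 3 libraries are too few for a value within each.

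**Figure D3:**
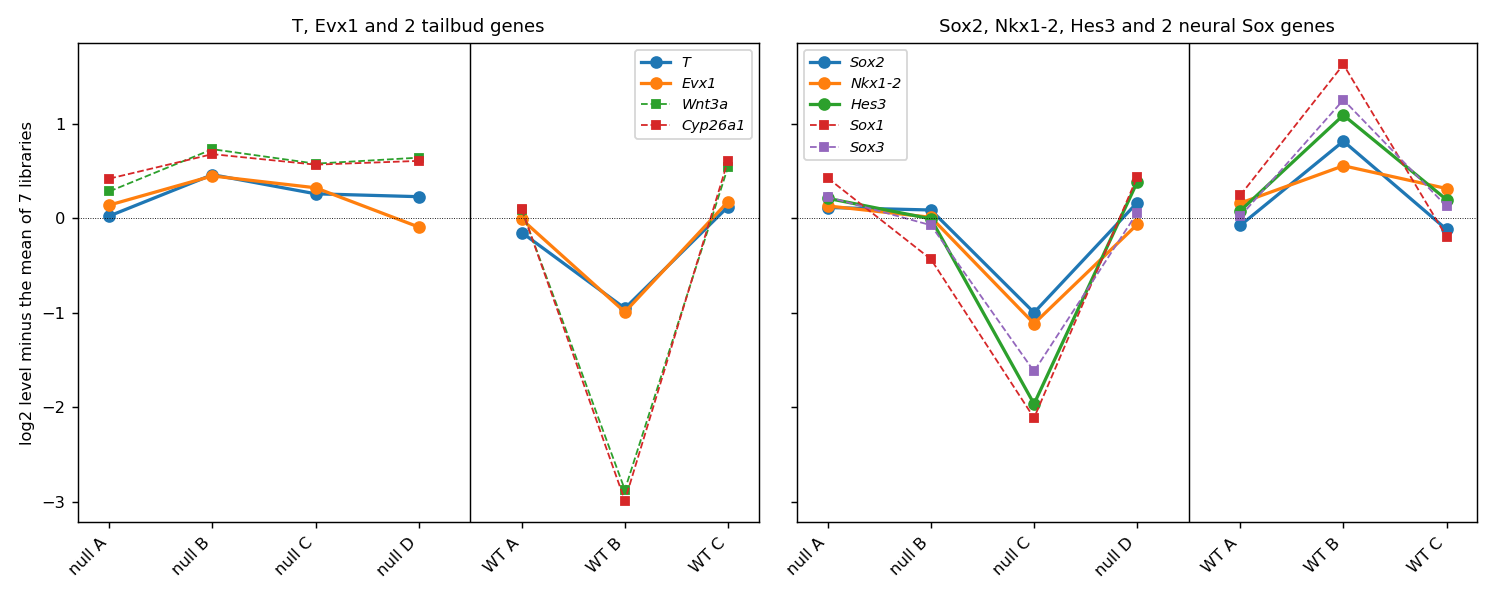
Log2 level of each gene minus its mean over the 7 libraries (vertical axis), with null libraries A to D left of wild-type libraries A to C and lines joining the libraries of a group only for reading. T and Evx1 dip together in wild-type library B with Wnt3a and Cyp26a1, and Sox2, Nkx1-2 and Hes3 dip together in null library C with Sox1 and Sox3 and are highest in wild-type library B.

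The genes of closest profile were found by the mean absolute difference of mean-subtracted log2 levels over the 7 libraries. For T these were Erbb3 (0.03), Sfn (0.04) and B3gnt7 (0.04), and the median over all genes was 0.34. For Evx1 they were Endod1 (0.04), Zscan10 (0.06) and Grhl2 (0.06), with T in place 25 of all genes tested. For Sox2 they were the row of Sox2ot, which contains it, then Mbp (0.08) and Sema3e (0.08). For Nkx1-2 they were its antisense gene Gm16764 (0.09), Lrp2 (0.12) and Sema3e (0.15), with Sox2 in place 15. The rows of Gm16764 and Nkx1-2 could share reads. For Hes3 they included Sox3 (0.15) and Fzd9 (0.20), with Sox2 in place 25 and Nkx1-2 in place 26.

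Relatives of the 5 genes gave 0 calls among 8 tested and 0 at an unadjusted limma p under 0.05, with a median change of -0.02, against -0.03 over all genes. Evx2, the Evx1 relative at the HoxD cluster, had 174, 376, 463 and 144 reads in null libraries A to D and 318, 8 and 293 in wild-type libraries A to C. It thus shared with Evx1 the low value in wild-type library B. Sox1, a neural relative of Sox2, had 612, 350, 102 and 649 reads in null libraries and 550, 1199 and 334 in wild-type libraries, with a change of -0.98 (limma adjusted p = 0.451), -0.42 without null library C and -0.45 without wild-type library B. Sox3, the X-linked relative, had 9.01, 7.32, 2.50 and 8.02 centred RPM in null libraries and 7.81, 18.4 and 8.41 in wild-type libraries. Its change was -0.82 (limma adjusted p = 0.404), -0.40 without null library C and -0.43 without wild-type library B. Both Sox genes were lowest in null library C and highest in wild-type library B, as was Sox2. The Hes relatives include Hes1, a transcriptional repressor downstream of Notch, and Hes7, an oscillator of the presomitic mesoderm. Their changes were 0.03 (limma adjusted p = 0.915) and 0.16 (limma adjusted p = 0.699). Nkx1-1 had 0 to 2 reads in any library, at or under the limit of 3 reads that a count of 0 allows, and gets no fold.

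Genes of the tailbud and caudal epiblast, the tissue where the progenitors lie, gave 0 calls among 25. At an unadjusted limma p under 0.05, 3 were higher and 3 lower, against 7.29% and 6.71% of all genes. Their median change was 0.21, against -0.03 over all genes. Of the 25, 17 had a change above 0, against 42.5% of all genes. Cdx4, an X-linked homeobox gene of the caudal embryo, had 47.2, 51.3, 46.9 and 46.3 centred RPM in null libraries and 34.2, 30.9 and 41.7 in wild-type libraries. The groups did not overlap, as in 6.51% of all genes for the higher direction, and the change was 0.44 (SE 0.10, limma adjusted p = 0.212). Its relative Cdx1 went the other way without overlap, with a change of -0.43 (SE 0.14, limma adjusted p = 0.352). Wnt3a had 18.4, 25.1, 22.6 and 23.6 centred RPM in null libraries and 16.1, 2.06 and 22.1 in wild-type libraries, where library B sets the mean. The summed level of the list was 968 to 1119 centred RPM in null and 793 to 1030 in wild-type libraries.

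T is also a notochord gene, and notochord and node markers were measured beside it. Of 10 listed markers, 7 were tested and 0 were called. At an unadjusted limma p under 0.05, 5 were higher, against 7.29% of all genes. All 7 had a change above 0, against 42.5% of all genes, and their median was 0.61. In 3 of the 7, Noto, Chrd and Foxa2, the lowest null value was above the highest wild-type value, against 6.51% of all genes. Noto, a homeobox gene of the node and notochord, had 5.21, 9.01, 5.33 and 5.04 centred RPM in null libraries and 2.80, 3.11 and 2.80 in wild-type libraries. Chrd, a secreted BMP antagonist, had a change of 0.81 (SE 0.16, limma adjusted p = 0.207), and Foxa2, a forkhead factor of notochord and endoderm, of 0.62 (SE 0.12, limma adjusted p = 0.207). The summed level of the list was 40.9 to 51.8 centred RPM in null and 26.8 to 31.9 in wild-type libraries, without overlap. Foxd4 had at most 3 reads in any library, and Cer1 had 0 reads in null library C and wild-type library C. In wild-type library B, where T was lowest, the notochord sum was also lowest, at 26.8 beside 30.4 and 31.9 in the other wild-type libraries. Of the 7 markers tested, 4 were lowest there, or 57.1%, against 22.7% of all genes. Noto was not, and at 3.11 it was the highest of the wild-type values. The part of notochord cells in the T values was not tested.

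Genes of the neural exit, those of neural plate and tube, gave 0 calls among 12 tested of 18. At an unadjusted limma p under 0.05, 1 was lower, against 6.71% of all genes. Their median change was -0.53, against -0.03 over all genes. Of the 12, 1 had a change above 0, against 42.5% of all genes. The summed level was 175, 151, 124 and 201 centred RPM in null libraries A to D and 171, 276 and 161 in wild-type libraries A to C. It was lowest in null library C and highest in wild-type library B, in the same order as Sox2 at both ends. Irx3, a homeobox gene of the neural tube, had a change of -0.75 (SE 0.33, limma adjusted p = 0.353), and -0.40 without wild-type library B. Cdh2, which encodes N-cadherin, had a change of -0.19 (SE 0.06, limma adjusted p = 0.352), with each null library below each wild-type library, as in 6.24% of all genes. On the deposited scale its change was near 0, and it was above 0 there with some libraries left out. Olig2, a marker of patterned ventral neural tube, had 8, 0, 0 and 43 reads in null libraries and 14, 88 and 1 in wild-type libraries. A count of 0 allows up to 0.0446 RPM in null library B and 0.0507 RPM in null library C. The part of older neural tube in the Sox2 and Hes3 values was not tested.

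Genes of the mesoderm exit, those of presomitic mesoderm and forming somites, gave 0 calls among 13 tested of 16 and 0 at an unadjusted limma p under 0.05, with a median change of -0.12. Tbx6, which T-positive progenitors turn on as they enter the presomitic mesoderm, had 34.3, 45.9, 43.4 and 44.8 centred RPM in null libraries and 39.0, 39.1 and 39.2 in wild-type libraries. Its change was 0.10 (SE 0.10, limma adjusted p = 0.597), and it did not share the low value of T in wild-type library B. Msgn1, a basic helix-loop-helix factor of the presomitic mesoderm, had a change of 0.38 (SE 0.19, limma adjusted p = 0.370), and Foxc2, a forkhead factor of the somites, of -0.75 (SE 0.41, limma adjusted p = 0.385). Without wild-type library B these changes were 0.18 for Msgn1 and -0.37 for Foxc2.

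**Figure D4:**
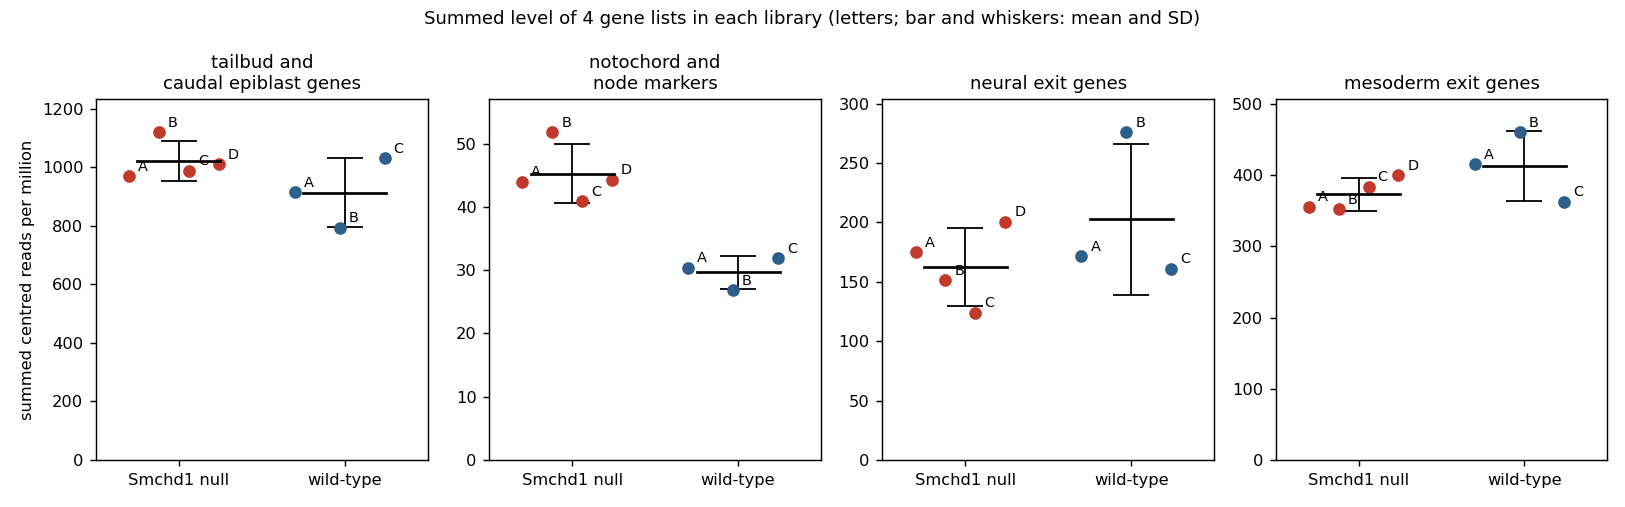
Summed centred RPM of 4 gene lists (vertical axes, starting at 0) in the null and wild-type libraries, with points lettered by library and the mean and SD as bar and whiskers. The notochord sums do not overlap, at 40.9 to 51.8 in null and 26.8 to 31.9 in wild-type libraries, and the neural sum is highest in wild-type library B at 276.

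Markers of other tissues in the piece gave 0 calls in limma, and at an unadjusted p under 0.05 there were 5 higher hindgut genes of 8, against 7.29% of all genes, and 0 in the other 4 lists. Hindgut markers had a median change of 0.44 over 8 tested, with no overlap between higher null and wild-type values in 3 of 8, Foxa2, Sox17 and Cdh1, against 6.51% of all genes, and sums of 123 to 146 centred RPM in null and 88.6 to 140 in wild-type libraries. Of the 8 hindgut genes, 6 had a change above 0, against 42.5% of all genes. Foxa2 and Foxa1 are also on the notochord list, and both are among the 5 higher genes of each list. Cdh1, which encodes E-cadherin, had a change of 0.62 (SE 0.21, limma adjusted p = 0.352), and 0.32 without wild-type library B. Surface ectoderm markers had a median of 0.23 over 9 tested, with sums of 99.3 to 112 centred RPM in null and 60.8 to 105 in wild-type libraries. Among them, Grhl2 had a change of 0.58 (adjusted p = 0.352) and Esrp1 of 0.52 (limma adjusted p = 0.360), and these were 0.24 and 0.15 without wild-type library B. Lateral plate markers had a median of -0.40 over 8 tested, with sums of 88.3 to 208 centred RPM in null and 100.3 to 184 in wild-type libraries. Of these 8, 3 had a change above 0, against 42.5% of all genes. Hand1 had 16.6, 4.84, 14.9 and 2.19 centred RPM in null libraries A to D. It had 16.4, 13.9 and 21.3 in wild-type libraries A to C, so its lower null mean rested on null libraries B and D. The change was -1.24 (limma adjusted p = 0.375) for Hand1 and -1.13 (limma adjusted p = 0.409) for Gata4. With 1 library left out these ran from -1.65 to -0.67 (without null library D) and from -1.69 to -0.65 (without wild-type library C). Endothelial markers had a median of 0.15 over 10 tested, with Kdr at 0.30 (adjusted p = 0.438) and Pecam1 at 0.28 (limma adjusted p = 0.499). Leaving out wild-type library B gave 0.041 for Kdr and 0.014 for Pecam1. Erythroid markers had a median of -0.16 over 9 tested, with Hba-a1 at -0.27 (adjusted p = 0.457) and Hbb-y at -0.16 (limma adjusted p = 0.593), which was 0.031 on the deposited scale. In wild-type library B, 7 of the 9 surface ectoderm, 9 of the 10 endothelial and 6 of the 9 erythroid genes tested were the lowest of all 7 libraries. So were 5 of the 8 hindgut and 2 of the 8 lateral plate genes, against 22.7% of all genes tested. The low T and Evx1 of that library thus came with low values in several tissues that do not form the progenitor domain. Lateral plate genes were near the share of all genes. The part of differing tissue shares in the T and Evx1 values was not tested.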

How the data were processed

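RNA-seq of 4 null and 3 wild-type libraries was analysed; the design text names 3 null samples. The authors deposited log2 RPM values (25965 rows, 7 columns). The submitters' processing notes name TopHat2 2.0.12, edgeR, bcl2fastq and mm10. How reads were counted, and on which strand and annotation, is not given in the sources used here.

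In every library, all values under 1000 reads corresponded to whole reads within a tolerance of 0.01, so reads were recovered, with an unread gene entered as 0.9 read. The limit that a count of 0 allows is 3 reads, or 0.044 to 0.0507 RPM, for counting error only. A gene was tested if its deposited log2 value exceeded 0 in 3 or more libraries. Values were centred on the autosomal median of each library. Genotype was fitted with limma 3.58.1 (R 4.3.3, trended prior), and p-values were adjusted by Benjamini-Hochberg over all genes at a threshold of 0.05. Tables, permutation tests and figures were made in Python 3.11.15 with scipy 1.17.1 and matplotlib 3.10.9. The fit was tested on simulated data.

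The 5 genes, the gene lists and the tests were chosen with earlier results of these data known. The text names, from each list, up to 5 passing genes and in any case the 2 of smallest p, and for each of the 5 genes the 3 nearest profiles, of which 1 is not reported here. Wnt3a, Tbx6, Noto, Sox17, Foxa1, Olig2, Evx2, Hes1 and Hes7 were picked after their values were seen. So were the rows overlapping the 5 genes, the somite genes among the last observations and the ratio of Hes3 to Sox2. Alternatives were other scalings, filters, a pseudocount of 1, other priors, array weights, voom on the recovered reads, leaving out libraries, and replicate blocks.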

Additional observations from a re-analysis of the deposited data

Results flagged for a closer look

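Among 38 sets of the 4 null values checked for a library far from the others, 4 were past Dixon's 95% limit of 0.829, each through a low value in null library C. They were Sox2 (gap over range 0.933), Nkx1-2 (0.842), Hes3 (0.834) and the X-linked Sox3 (0.838). Chance alone passes about 1 in 20 such sets, and these genes follow each other over the libraries, so they are not separate signs. Groups of 3 were not checked in this way, so it says nothing of wild-type library B.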

How the results depend on the processing

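On the centred scale 0 of 95 values of the 5 genes passed the threshold in any setting run. On the deposited scale 5 values did: T with wild-type library A (0.98) or null library A (0.86) left out, Evx1 with wild-type library A left out (0.93), and T (0.69) and Evx1 (0.58) with a block on the last column number. With wild-type library A left out, that scale called 4218 genes higher over all genes, so these calls are not particular to the genes named. Counts over all genes for null library A left out and for the block are given below. With the block on the deposited scale, the variance of each gene came from the trended prior alone. Those p-values thus do not measure the spread of T or Evx1. Of the other genes named by rule, 23 values passed, all on the deposited scale with that block or with 1 library left out. They belong to Chrd, Cdx4, Foxa2, Cdh1, Grhl2, Esrp1, Hand1, Gata4, Msgn1, Sox1, Kdr and Pecam1. With wild-type library B left out there, Hand1 was -1.23 (limma adjusted p = 5.49e-06) and Gata4 -1.54 (limma adjusted p = 0.00187). That fit took the variance of each gene from the trended prior alone, so these p-values do not reflect the spread of Hand1 or Gata4. Their log2 SD in null libraries was 1.39 and 1.13 on the centred scale. With wild-type library A left out on the deposited scale, Chrd was 1.08 (limma adjusted p = 0.0235) and Foxa2 0.89 (limma adjusted p = 0.0231). Leaving out 1 library at a time on the centred scale gave 0.26 to 0.80 for T, 0.12 to 0.71 for Evx1, -0.53 to -0.06 for Sox2, -0.73 to -0.32 for Nkx1-2 and -1.04 to -0.26 for Hes3. Sox2 changed sign on the deposited scale with null library C left out (0.089) and with wild-type library B left out (0.088), and without both on the centred scale (0.22), as did Hes3 (0.060), Sox1 (0.12), Kdr (-0.030) and Pecam1 (-0.080) without both. The ranges with 1 library left out were -1.36 to -0.42 for Sox1, 0.04 to 0.46 for Kdr, 0.01 to 0.43 for Pecam1 and -0.29 to 0.052 for Hbb-y, which changed sign without wild-type library C. Hbb-y was 0.031 on the deposited scale and 0.022 there with the block, and Hba-a1 was 0.045 there without wild-type library C. On the deposited scale Hbb-y was 0.013, 0.021, 0.041 and 0.050 without null libraries A to D, and 0.077 and 0.16 without wild-type libraries A and C. On that scale Cdh2 was 0.0189 and 0.0194 without null libraries A and B, and 0.061 and 0.0092 without wild-type libraries A and B. The cause of these changes was not tested.

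Genes called higher, 7 in all, numbered 18 with cyclic loess, 15 with quantile scaling, 19 with a stricter filter, 12 with array weights, and 3 to 9 with 1 library left out. They numbered 4 without both null library C and wild-type library B. On the deposited scale they numbered 164, 3 and 4 without null libraries A, B and D, and 4218, 100 and 1 without wild-type libraries A, B and C. Genes called lower, 1 in all and with 1 library left out, numbered 2 there when the library left out was null A or wild-type A, and 46 when it was wild-type B. The counts there without wild-type library B, 100 higher and 46 lower, rest on gene variances set by the prior alone.

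The replicate numbers of the labels could not be placed on the columns. As for the numbers in the column names, libraries sharing the last one had correlations of their deviations of 0.36, 0.20, 0.41 and -0.05, so they were not taken to pair the samples. The replicate block on that number gave 0.53 for T, 0.42 for Evx1, -0.28 for Sox2, -0.53 for Nkx1-2 and -0.63 for Hes3, none past the threshold, with 7 genes called higher and 1 lower. With it the deposited scale called 698 higher and 44 lower, in the fit whose gene variances came from the prior alone. A block on the first number, centred, called 0 higher and 0 lower. The centred block on the last number was planned. The other blocks, the deposited scale with libraries left out and the joint omission of 2 libraries were chosen after seeing the data.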

Other observations

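Genes of the next somite boundary split the libraries across the genotypes, and were chosen after their values were seen. Mesp2, which sets the boundary of the forming somite, had 62, 3, 4 and 184 reads in null libraries A to D and 127, 124 and 8 in wild-type libraries A to C. Ripply2, which acts with it, had 311, 9, 6 and 59 reads in null libraries and 56, 113 and 17 in wild-type libraries. Meox1, a homeobox gene of the somites, had 20.1, 7.75, 4.85 and 29.4 centred RPM in null libraries and 22.6, 57.2 and 7.03 in wild-type libraries. Null libraries B and C and wild-type library C were thus low in all of them, and Meox1 was lowest in null library C and highest in wild-type library B, as were Sox2 and Hes3. No link between these values and the 5 genes was tested.

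The ratio of Hes3 to Sox2 was 0.793, 0.695, 0.379 and 0.862 in null libraries A to D and 0.826, 0.898 and 0.923 in wild-type libraries A to C. The ratio was thus lowest in null library C, where both genes were lowest.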
